A study of Mus musculus with 6 samples.

Results

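Tyrosine phosphorylation signalling is best known from B cells, T cells, mast cells and macrophages, where a receptor chain is phosphorylated by a Src family kinase and the phosphotyrosine is then read by proteins that carry an SH2 domain. Kinases of the Tec family, exchange factors and phospholipases carry the signal on, and SH2-containing phosphatases end it. Tuft cells are chemosensory epithelial cells, and thymic tuft cells are a subset of medullary thymic epithelial cells (mTEC) that share taste-type signalling genes with tuft cells of the gut and airways. The genes described here are 9 members of this signalling machinery, Lyn, Bmx, Btk, Vav1, Ptpn6, Inpp5d, Sh2d6, Sh2d7 and Cd79b, out of 52636 gene rows in the table. They were chosen by name with the difference between tuft-like and non-tuft-like mTEC in these libraries already known, so their levels in this comparison are given as a description and carry no test.

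The study sequenced bulk RNA of tuft-like mTEC (3 libraries) and of non-tuft-like mTEC (also 3), sorted from thymi of C57BL/6 mice at 6 weeks of age. All sorted cells bound the lectin UEA, were MHCII low and lacked Sca1 and CD63. The labels call them CD80 negative, and the study's text calls tuft-like mTEC CD80 low. Tuft-like cells were in addition positive for CD117 and CD66a, and non-tuft-like cells were negative for both. The labels name no treatment, and each population is defined by its gate alone. The labels do not say whether the libraries came from separate animals, so the p-values below measure the spread between these libraries, which may be technical. In bulk RNA, more cells of a type and more RNA per cell cannot be told apart.

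Counts on genes summed to between 20097617 and 48369825 per library, and reads assigned to no gene made up between 19.7% (tuft-like replicate 3) and 61.6% (tuft-like replicate 1) of all rows. CD66a is encoded by Ceacam1, which had 174.3, 179.2 and 272.6 CPM (counts scaled for library depth) in tuft-like replicates 1, 2 and 3, against 11.5, 6.58 and 18.1 CPM in the non-tuft-like replicates. CD117 is encoded by Kit, which had between 301 and 451 CPM in the tuft-like libraries and between 141 and 185 CPM in the others. The level of Kit did not pass a false discovery rate (FDR) of 0.05 (log2 fold change 1.24, edgeR quasi-likelihood FDR 0.0678). All 10 genes of a tuft cell marker list were called higher in tuft-like mTEC in that test, as were 1.16% of all tested genes. The list was drawn up with earlier results of these libraries known. The epithelial marker Epcam stood at 644 CPM in the non-tuft-like and at 691 CPM in the tuft-like gate, and Krt8 at 2465 and 3924 CPM. They belong to a list of 6 epithelial markers, of which 3 had a log2 fold change above 0. The median over these 6 was -0.17, and edgeR called 1 lower and 0 higher. DESeq2 and limma voom each called 1 higher and 2 lower.

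The feature that most of the members share is the SH2 domain, a fold that holds phosphotyrosine through an arginine. The coding stretches around this arginine are shown to let the reader see which residue the family has in common. Each stretch has 42 bases of coding sequence, 5′ to 3′ on the gene's strand of mm10 (GENCODE M21 models), and the capitals mark the arginine codon found by a script. They are codon 156 of Lyn (chr4:3745584-3745625, plus strand), codon 302 of Bmx (chrX:164218365-164218406, minus), codon 307 of Btk (chrX:134554724-134554765, minus), codon 696 of Vav1 (chr17:57311836-57311877, plus), codons 32 and 138 of Ptpn6 (chr6:124732761-124732802 and chr6:124728871-124728912, minus), codon 34 of Inpp5d (chr1:87620567-87620608, plus) and codon 273 of Sh2d6 (chr6:72515346-72515544, minus, a span that includes an intron).
Lyn: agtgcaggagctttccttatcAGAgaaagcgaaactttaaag
Bmx: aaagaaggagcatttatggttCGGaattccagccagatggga
Btk: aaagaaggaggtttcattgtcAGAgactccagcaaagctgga
Vav1: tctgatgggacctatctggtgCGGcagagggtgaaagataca
Ptpn6, first domain: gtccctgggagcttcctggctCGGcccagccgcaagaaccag
Ptpn6, second domain: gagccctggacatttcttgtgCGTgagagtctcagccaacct
Inpp5d: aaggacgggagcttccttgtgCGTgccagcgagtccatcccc
Sh2d6: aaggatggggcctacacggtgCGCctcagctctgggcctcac
Lyn, Bmx, Btk, Vav1, Inpp5d and Sh2d6 gave 1 such stretch and Ptpn6 gave 2, since this phosphatase has an SH2 domain at each of a pair of positions. Sh2d7 gave none in the gene model used, whose start lies 4861 bp downstream of the start in RefSeq, and no sequence of it is shown. The arginine was searched by a fixed pattern of the residues before it, and why Sh2d7 gave none was not tested.

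Cd79b is the receptor chain among the members and carries an ITAM, a motif with a pair of tyrosines that Src family kinases phosphorylate. Its 45 coding bases are shown because some SH2 domains bind such tyrosines once phosphorylated. Whether any of the domains above does so is not measured here. The tyrosine codons 255 and 266 of the transcript are in capitals (chr11:106311867-106312012, minus strand, a span that includes an intron).
Cd79b: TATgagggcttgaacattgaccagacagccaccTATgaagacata

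Of the 9 members, 8 had higher levels in every tuft-like library than in any non-tuft-like library, and Btk did not. Over all 32496 tested genes, 7.18% showed tuft-like libraries above the non-tuft-like libraries without overlap. Summed over the members, levels were 4045, 5873 and 6688 CPM in tuft-like replicates 1, 2 and 3, against 291.6, 336.2 and 299.7 CPM in the non-tuft-like replicates. The median log2 fold change of the members, all of which passed the filter on low counts, was 4.31, beside 0.021 over all tested genes. Because these libraries were used in choosing the members, neither value is support for a direction.

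**Figure D1:**
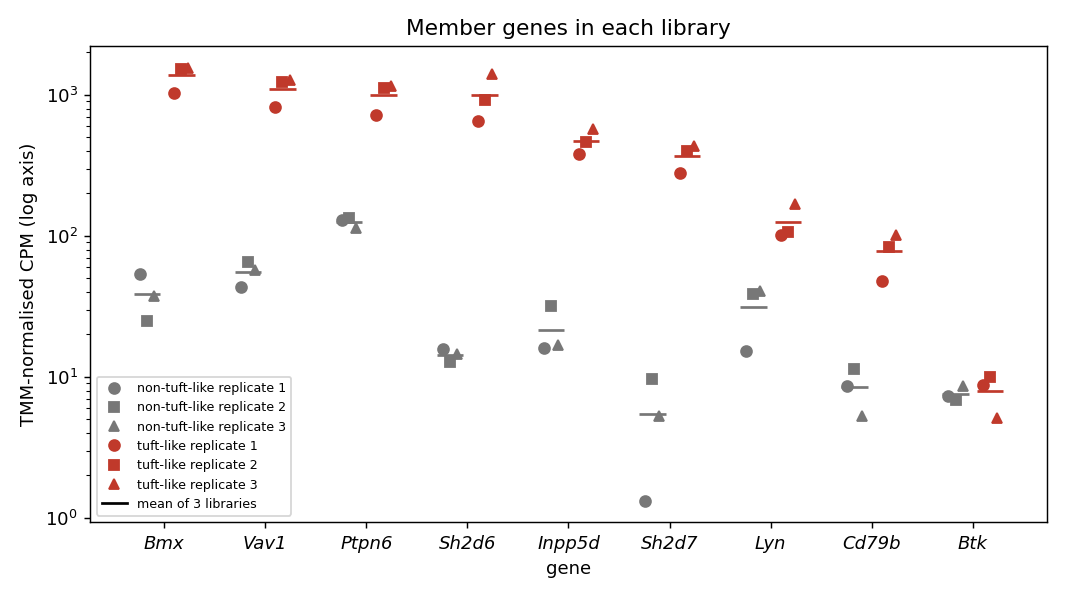
Level of each member in each of the 6 libraries, as TMM-normalised CPM on a log axis, with symbols for the replicate number, colours for the population and a line at the mean of 3 libraries. Tuft-like points lie above non-tuft-like points for 8 genes, and the points of Btk overlap between 5.11 and 10.03 CPM.

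Cd79b (ENSMUSG00000040592, chromosome 11 of mm10, 106311341 to 106314762) encodes Ig-beta, which pairs with Ig-alpha in the B cell receptor. It had 47.9, 83.5 and 101.5 CPM in tuft-like replicates 1, 2 and 3, against 8.58, 11.4 and 5.28 CPM in the non-tuft-like replicates. The groups did not overlap, and the log2 fold change was 3.20 (approximate standard error 0.43, n = 3 libraries each). Its partner Cd79a, which encodes Ig-alpha, was counted 39, 50 and 0 times in the tuft-like libraries, against 1158, 2856 and 3674 counts of Cd79b. Per kb of exon, which allows genes to be compared, Cd79b reached 54.2 ± 19.1 CPM per kb in tuft-like mTEC and Cd79a 0.703 ± 0.611 CPM per kb (SD, n = 3). Cd79a did not differ detectably between the populations (log2 fold change -0.17, edgeR FDR 1). The library with the highest Cd79b level was therefore the library without a count of Cd79a, and 0 counts there allow a level of up to 0.0828 CPM. In that library the median of 1134 olfactory receptor genes, used below as background, was also 0 counts per kb.

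Lyn (ENSMUSG00000042228, chromosome 4, 3678115 to 3813122) encodes a Src family kinase that phosphorylates ITAM tyrosines in B cells and mast cells. It had 100.8, 106.8 and 169.3 CPM in tuft-like replicates 1, 2 and 3, against 15.2, 38.8 and 40.5 CPM in the non-tuft-like replicates. Its log2 fold change of 1.996 (standard error 0.41) was the lowest among the 8 members without overlap, and non-tuft-like mTEC held 25.1% of the tuft-like level. Of its exons, 248 bp overlap Gm26857 on the other strand. Whether HTSeq counted by strand is not given in the sources used here, so reads of such overlaps cannot be told apart.

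Bmx and Btk both encode Tec family kinases, which act downstream of Src family kinases and phosphorylate phospholipase C gamma. Bmx (ENSMUSG00000031377, chromosome X, 164192842 to 164258193) had 1034, 1539 and 1562 CPM in tuft-like replicates 1, 2 and 3, against 53.8, 24.9 and 37.6 CPM in the non-tuft-like replicates. Its log2 fold change was 5.15 (standard error 0.44). Btk (ENSMUSG00000031264, chromosome X, 134542336 to 134583570), the kinase of the family best known from B cells, had 8.80, 10.03 and 5.11 CPM in tuft-like replicates 1, 2 and 3, against 7.29, 6.88 and 8.58 CPM in the non-tuft-like replicates. The populations overlapped, the log2 fold change was 0.07 (standard error 0.69), and it lay between -0.13 and 0.27 with each library left out in turn.

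The counts of Btk were close to the background in all libraries. Background was taken from 1134 olfactory receptor genes, which need not be silent in mTEC, as the 99th percentile of their counts per kb of exon. Btk stood at between 1.01 and 1.58 times this percentile, and a difference in its level was not detectable at this depth. The other 8 members stood at least 9.002 times above it in every tuft-like library. In non-tuft-like libraries, Inpp5d in replicate 3 and Sh2d7 in replicates 1 and 3 were below it, and the remaining values of these 8 members were above it.

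Sh2d6 and Sh2d7 encode SH2 domain proteins without an enzymatic domain, and both genes are used as markers of tuft cells in other organs. Sh2d6 (ENSMUSG00000052631, chromosome 6, 72513641 to 72521707) had 649, 927 and 1410 CPM in tuft-like replicates 1, 2 and 3, against 15.8, 12.7 and 14.5 CPM in the non-tuft-like replicates. Its log2 fold change was 6.12 (standard error 0.43). Sh2d7 (ENSMUSG00000046460, chromosome 9, 54538984 to 54545020) had 281, 398 and 435 CPM in tuft-like replicates 1, 2 and 3, against 1.33, 9.69 and 5.31 CPM in the non-tuft-like replicates. Its log2 fold change was 6.09 (standard error 0.67), within the error of that of Sh2d6, and it lay between 5.60 and 6.81 with each library left out in turn. The spread of Sh2d7 among non-tuft-like libraries was wider than that of Sh2d6, from 42 to 455 counts. Of the exons of Sh2d7, 227 bp overlap Cib2 on the other strand.

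Vav1 (ENSMUSG00000034116, chromosome 17, 57279100 to 57328031) encodes the haematopoietic exchange factor for small GTPases. It had 822, 1226 and 1267 CPM in tuft-like replicates 1, 2 and 3, against 43.7, 65.8 and 57.6 CPM in the non-tuft-like replicates. The log2 fold change was 4.31 (standard error 0.37), and the populations did not overlap.

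The phosphatases Ptpn6 (SHP-1) and Inpp5d (SHIP-1) are negative regulators, the former removing phosphate from tyrosines and the latter from the lipid product of phosphoinositide 3-kinase. Ptpn6 (ENSMUSG00000004266, chromosome 6, 124720707 to 124738714) had 718, 1120 and 1166 CPM in tuft-like replicates 1, 2 and 3, against 129.9, 134.2 and 113.4 CPM in the non-tuft-like replicates. Its log2 fold change was 2.99 (standard error 0.34), and its level in non-tuft-like mTEC, at 12.6% of the tuft-like level, was the highest of the members there. Inpp5d (ENSMUSG00000026288, chromosome 1, 87620312 to 87720507) had 383, 462 and 572 CPM in tuft-like replicates 1, 2 and 3, against 15.9, 31.9 and 16.9 CPM in the non-tuft-like replicates, a log2 fold change of 4.45 (standard error 0.39). Of the exons of Ptpn6, 195 bp overlap Gm20531 on the other strand.

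The levels of the members had an order when divided by exon length. In tuft-like mTEC Sh2d6 led with 589 ± 228 CPM per kb, followed by Bmx with 446 ± 96.5, Ptpn6 with 357 ± 87.9 and Vav1 with 299.6 ± 66.8 CPM per kb (SD, n = 3). Neighbours among these 4 genes overlapped between libraries. Sh2d7 (134.6 ± 29.1 CPM per kb) was lower than Vav1 and higher than Inpp5d (62.1 ± 12.5 CPM per kb) without overlap. Inpp5d, Cd79b and Lyn (30.9 ± 9.31 CPM per kb) again overlapped with their neighbours, and Btk came last at 2.53 ± 0.813 CPM per kb. In non-tuft-like mTEC the order was led by Ptpn6 with 44.9 ± 3.93 CPM per kb, which did not overlap with the next gene, Vav1, at 15.1 ± 3.02 CPM per kb. All later neighbours overlapped there.

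Among tuft-like libraries, 8 of the 9 members were lowest in replicate 1 and highest in replicate 3. For the members other than Btk, the level in replicate 3 was between 1.49 and 2.17 times that in replicate 1. The same ratio lay between 1.40 and 2.21 for the 10 tuft cell markers. The share of reads without a gene was 61.6% in replicate 1 and 19.7% in replicate 3, and its part in this spread was not tested.

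Each member has relatives that do the same biochemical work in other cells, and these were picked for their relation to a member and not for their result. Of the 12 given here, Plcg2 was higher in tuft-like mTEC in edgeR's quasi-likelihood test and 11 were not called. The Src family kinases described as relatives of Lyn were Fyn (log2 fold change 0.87, edgeR FDR 1), Yes1 (-1.03, FDR 0.289) and Src (-0.17, FDR 1). In tuft-like mTEC they reached 1.99, 2.55 and 4.97 CPM per kb. Fyn was close to the background from olfactory receptor genes. It stood at 0.42, 0.45 and 0.65 times their 99th percentile in non-tuft-like replicates 1, 2 and 3. In the tuft-like libraries it stood at between 0.68 and 1.38 times this percentile, Yes1 at between 0.97 and 1.86, and Src at between 1.36 and 3.87.

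For Bmx and Btk, the relative was Tec, which had between 51.7 and 94.1 CPM in the tuft-like libraries and between 50.9 and 92.0 CPM in the non-tuft-like ones, a log2 fold change of -0.19 (edgeR FDR 1), and so overlapped fully. For Vav1, the broadly expressed Vav2 (log2 fold change -0.58) and Vav3 (-0.48) both overlapped between populations (edgeR FDR 1 for each). In tuft-like mTEC Vav3 reached 10.2 and Vav2 2.37 CPM per kb, beside 299.6 CPM per kb for Vav1.

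The relatives of the phosphatases were not called either. Ptpn11 (SHP-2) had a log2 fold change of -0.050 and Inppl1 (SHIP-2) one of 0.39, and edgeR's FDR was 1 for both. Per kb of exon, tuft-like mTEC held 357 CPM of Ptpn6 beside 4.96 CPM of Ptpn11, and 62.1 CPM of Inpp5d beside 15.4 CPM of Inppl1. Syk, the kinase that docks on phosphorylated ITAMs, had 43.2, 45.8 and 71.1 CPM in tuft-like replicates 1, 2 and 3, against 20.6, 38.9 and 41.0 CPM in the non-tuft-like replicates, and was not called (log2 fold change 0.67, edgeR FDR 0.777). Of the phospholipases that Tec family kinases act on, Plcg2 rose from 58.6 ± 2.59 to 444 ± 104 CPM (SD over 3 libraries), by 2.92 on the log2 scale (edgeR FDR 0.000886). Plcg1 had between 23.7 and 33.5 CPM in non-tuft-like libraries and 8.64, 27.2 and 5.50 CPM in tuft-like replicates 1, 2 and 3 (log2 fold change -1.05, edgeR FDR 0.809).

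**Figure D2:**
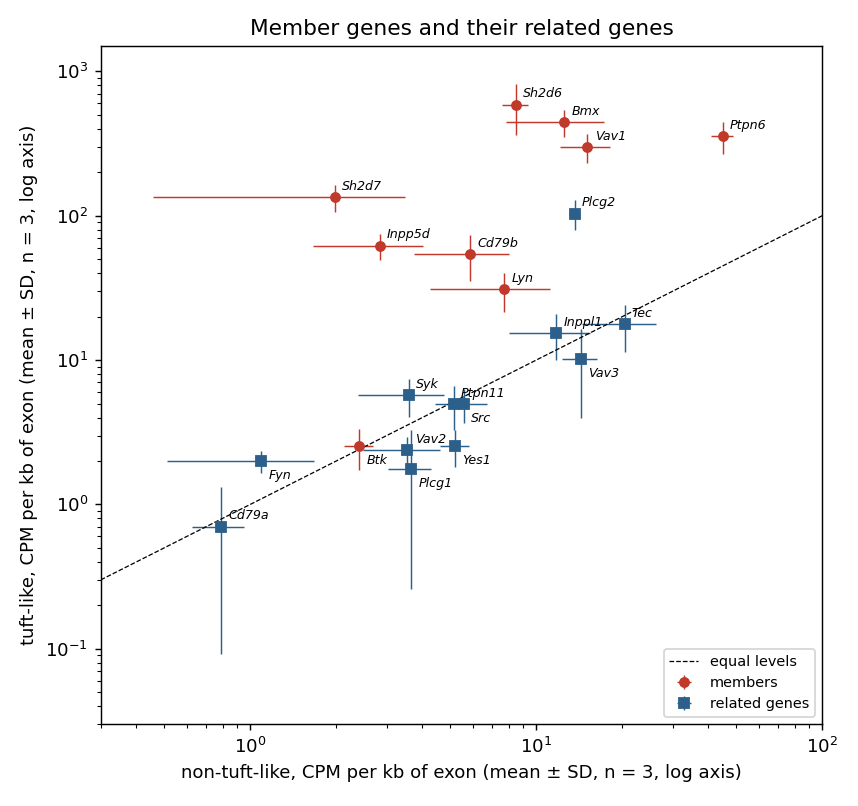
Mean level per kb of exon in non-tuft-like (horizontal) and tuft-like mTEC (vertical), both on log axes, for the 9 members and 12 related genes, with bars for the SD over 3 libraries and a dashed line at equal levels. All members but Btk lie well above the line together with Plcg2, Btk lies next to it, and the other 11 related genes lie near or below it or, like Syk and Fyn, slightly above.

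The wider signalling list held 102 other genes in 9 roles, and all 102 passed the filter on low counts. Of these, 13 were called at an FDR under 0.05, which is 12.7%, where 2.11% of all tested genes were called. Higher in tuft-like mTEC were 11 of them (10.8%, beside 1.16% of all tested genes), and lower were 2 (1.96%, beside 0.951%). With a filter of at least 10 CPM, edgeR called 19 of 55 listed genes, beside 1547 of 11632 tested genes. The median log2 fold change of the 102 genes was -0.17. The list was drawn up with earlier results of these libraries known, and its counts are a description.

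**Figure D3:**
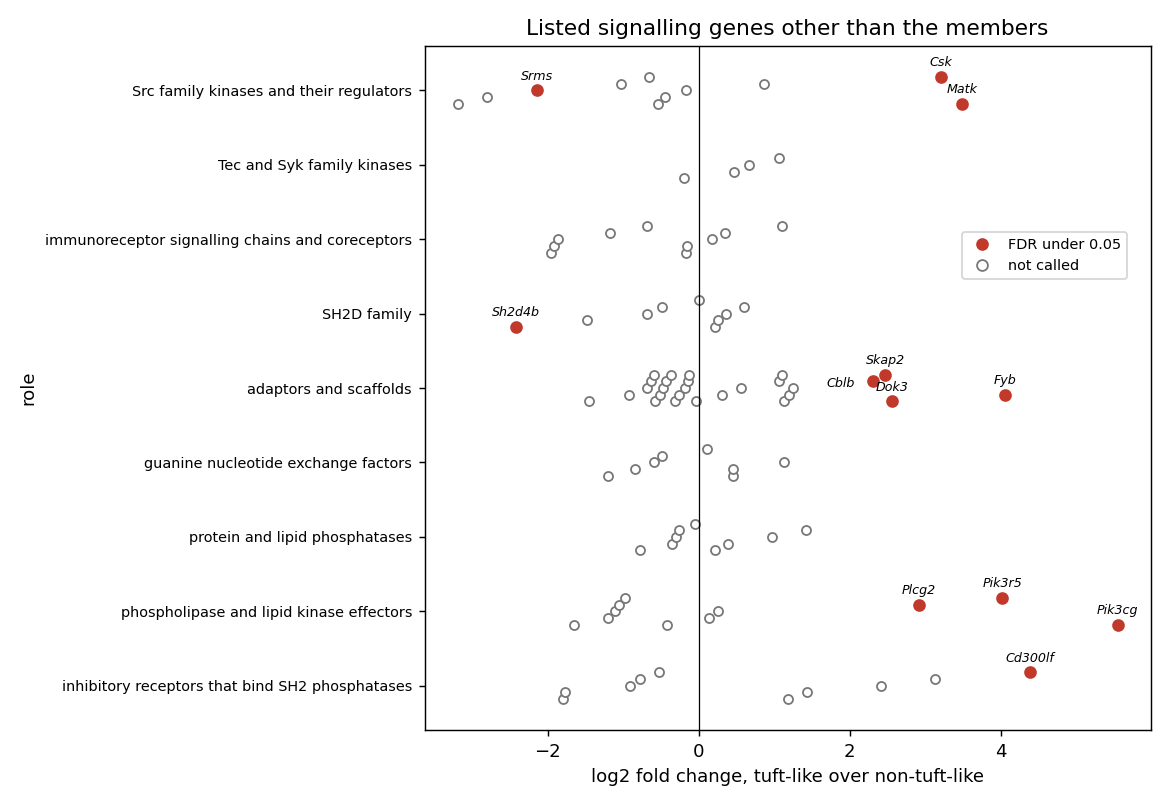
Log2 fold change of tuft-like over non-tuft-like mTEC for 99 of the 102 listed signalling genes other than the members, 1 point per gene, grouped by role, with filled points for an FDR under 0.05 in edgeR's quasi-likelihood test. Called genes lie in 5 of the 9 roles, 10 to the right of 0 and Srms and Sh2d4b to the left.

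Among 12 Src family kinases and their regulators, edgeR called 3 higher and 1 lower. DESeq2 and limma voom each called 3 higher and 2 lower. Csk and Matk encode kinases that phosphorylate the inhibitory tail of Src family kinases. Csk rose from 23.2 ± 1.89 to 214 ± 103 CPM (SD over 3 libraries, edgeR FDR 0.00167), by 3.21 on the log2 scale, and Matk from 34.6 ± 9.37 to 390 ± 130 CPM (log2 fold change 3.49, edgeR FDR 0.00108). Srms, a Src-related kinase of epithelia, fell by 2.14 on the log2 scale, from 44.3 to 10.05 CPM (edgeR FDR 0.0293). It was no longer called when non-tuft-like replicate 1, 2 or 3 was left out (edgeR FDR 0.135, 0.0896 and 0.0531), or when tuft-like replicate 1 or 3 was (0.0740 and 0.0566).

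None of the 5 other Tec and Syk family kinases was called by edgeR, DESeq2 or limma voom, and 0 had an unadjusted edgeR p under 0.05. Of all 32496 tested genes, 2914 had such a p. Among 9 other SH2D genes, Sh2d4b was lower by edgeR's test (log2 fold change -2.42, from 69.8 ± 20.9 to 13.1 ± 5.48 CPM, FDR 0.0123) and the others were not called. When non-tuft-like replicate 2 was left out, Sh2d4b was no longer called (edgeR FDR 0.0571), and DESeq2 also called Sh2d4a lower.

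Of 27 adaptors and scaffolds, 4 were higher by edgeR and 0 lower, where 5 genes had an unadjusted p under 0.05 and DESeq2 called 1 gene, Pag1, lower. Fyb (ADAP), which links the T cell receptor to integrins, rose from 29.5 ± 6.32 to 494 ± 180 CPM (SD over 3 libraries), by 4.06 on the log2 scale (edgeR FDR 0.000614). Skap2, an adaptor that binds Fyb, rose from 71.2 to 395 CPM (log2 fold change 2.47, edgeR FDR 0.0035). Dok3, a docking protein that restrains B cell signalling, and Cblb, a ubiquitin ligase for activated kinases, had log2 fold changes of 2.56 (edgeR FDR 0.039) and 2.31 (edgeR FDR 0.0185). Dok3 was no longer called when non-tuft-like replicate 1 or 2 was left out (edgeR FDR 0.0753 and 0.136), or when tuft-like replicate 2 or 3 was (0.139 and 0.0769). For Cblb the same held for non-tuft-like replicates 1, 2 and 3 (edgeR FDR 0.0571, 0.0669 and 0.0527).

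Among 11 effectors, DESeq2 called 1 lower, and edgeR called 3 higher and 0 lower. Beside Plcg2, these were both subunits of a phosphoinositide 3-kinase that responds to G protein beta-gamma dimers. The catalytic subunit Pik3cg had 434.5, 632.4 and 545.3 CPM in tuft-like replicates 1, 2 and 3, against 9.53, 19.1 and 5.75 CPM in the non-tuft-like replicates (log2 fold change 5.55, edgeR FDR 0.000512). Its regulatory subunit Pik3r5 had 1165, 1666 and 1652 CPM in tuft-like replicates 1, 2 and 3, against 92.2, 115.9 and 67.5 CPM in the non-tuft-like replicates (log2 fold change 4.02, edgeR FDR 0.000653). Every tuft-like library was above every non-tuft-like library for both subunits.

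Of 10 inhibitory receptors that recruit SH2-containing phosphatases, 4 had an unadjusted edgeR p under 0.05. DESeq2 called 2 higher and 1 lower, and limma voom 2 higher and 0 lower. By edgeR's FDR only Cd300lf was called, as higher (log2 fold change 4.38, edgeR FDR 0.00742). Cd300lf is a receptor of myeloid cells that is also known on tuft cells of the gut. It had 62.8, 124 and 154 CPM in tuft-like replicates 1, 2 and 3, against 3.57, 10.99 and 1.68 CPM in the non-tuft-like replicates. In 3 roles no gene was called by edgeR's quasi-likelihood test beside the Tec and Syk kinases. These were the 11 immunoreceptor chains and coreceptors, the 8 exchange factors and the 9 phosphatases, each with 1 gene at an unadjusted p under 0.05. Among these 3 roles DESeq2 called the exchange factor Sos1 higher, and limma voom called none.

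Since the members are best known from leukocytes, which express CD45, and the study's gate for tuft-like mTEC lay within CD45-EpCAM1+ cells after depletion of CD45+ cells in most of its experiments, markers of leukocytes were measured in the same libraries. Of 44 markers in 5 lists, 42 were tested. Of these, edgeR called 2 (4.76%, beside 2.11% of all tested genes). Both were lower in tuft-like mTEC, as were 0.951% of all tested genes. An unadjusted edgeR p under 0.05 was found for 7 of the 42, and for 2914 of all 32496 tested genes. In this test Rac2 (log2 fold change 1.31, edgeR FDR 0.19) and Themis (2.61, edgeR FDR 0.0734) were not called. DESeq2, and edgeR with a filter of at least 10 CPM, called both higher, and edgeR on all counted genes called Themis higher. Cd52 fell by 2.94 on the log2 scale, from 51.5 to 6.69 CPM (edgeR FDR 0.00223), and Cd68 fell by 3.30, from 39.3 to 3.99 CPM (edgeR FDR 0.0028). The median log2 fold change of the 42 markers was -0.50. Ptprc, which encodes the pan-leukocyte antigen CD45, had 33.7, 27.6 and 8.31 CPM in tuft-like replicates 1, 2 and 3, against 3.41, 10.9 and 11.7 CPM in the non-tuft-like replicates, which overlapped (log2 fold change 1.42, edgeR FDR 0.61).

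In tuft-like replicate 3, where 8 of 9 members had their highest level in that population, 15 of the 44 markers had 0 counts and 24 had at most 3. The thymocyte marker Cd3d had 2, 35 and 0 counts in tuft-like replicates 1, 2 and 3, the mast cell marker Cpa3 126, 111 and 0, and the macrophage marker Itgam 46, 14 and 0. Each is the first gene of its list, and other genes kept counts. Of the 10 thymocyte markers, 4 had 0 counts in replicate 3 and 5 had at most 3. Counts of 0 in replicate 3 were not particular to these markers. The median of the olfactory receptor genes used as background was 10.5, 5.61 and 0 counts per kb in these replicates. The summed B cell markers reached 51.2, 57.97 and 18.2 CPM in these libraries, and between 48.6 and 93.9 CPM in non-tuft-like libraries. The thymocyte sums were 55.96, 36.4 and 41.9 CPM, against 22.3, 38.1 and 25.4 CPM in the non-tuft-like replicates. The mast cell sums were 85.8, 69.5 and 201 CPM, against 434, 400 and 257 CPM. The macrophage and dendritic cell sums were 194.6, 133.2 and 188.3 CPM, against 356, 312 and 231 CPM. Over all 44 markers, the sums were 792, 818 and 1124 CPM in tuft-like replicates 1, 2 and 3, and between 1032 and 1541 CPM in the non-tuft-like libraries. The pan-leukocyte list summed to 404, 521 and 675 CPM in the tuft-like replicates. Replicate 3 thus had the most markers at or near 0 and also the highest sum among the tuft-like libraries. Btk was lowest there. The part of leukocyte RNA in the levels of the members was not tested. Some genes of these lists, such as Hdc and Gata2 for mast cells, are also expressed outside leukocytes.

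**Figure D4:**
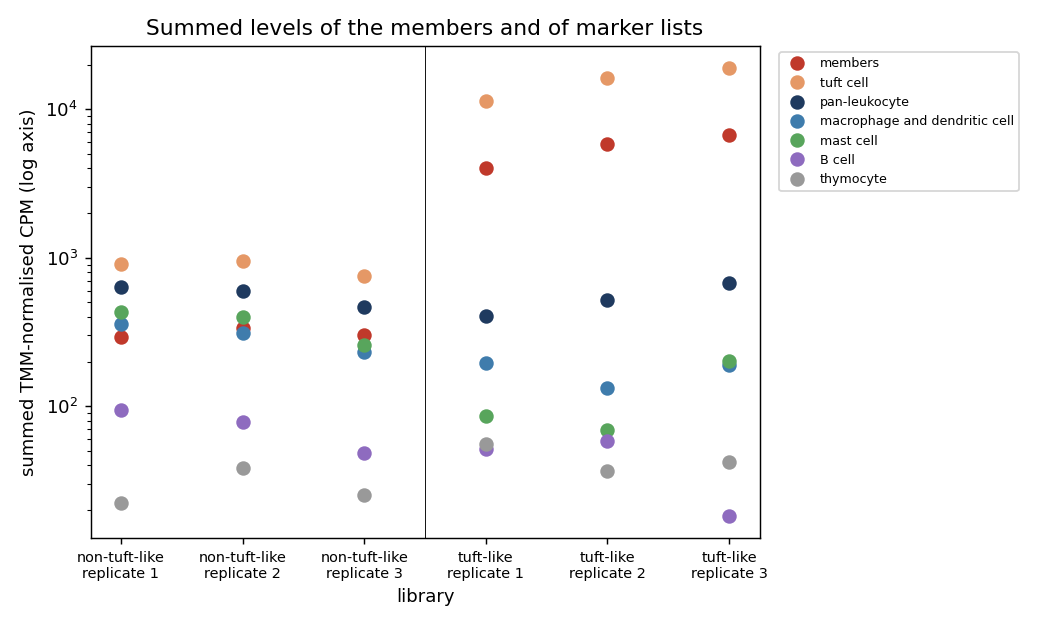
Summed CPM in each library, on a log axis, of the 9 members, 10 tuft cell markers and 5 lists of leukocyte markers. The members and the tuft cell markers are higher in all 3 tuft-like libraries, whereas no leukocyte list shows such a step upwards.

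The promoters of members with an entry in the RefSeq table (GRCm38.p6) were read for short motifs of factors known from haematopoietic genes. Windows of 300 bases were found for 7 members, and Lyn and Cd79b were not among them. The windows of Sh2d6 and Btk lie at starts inside their gene models. The motif GAGGAAGT, or its reverse complement, of the ETS factor PU.1 type was held by Vav1 and Inpp5d, 2 of 7 members, and by 2.44% of all 32851 windows. The octamer ATGCAAAT, which POU factors bind, was in 0 of 7 members and in 1.60% of windows. The RUNX motif TGTGGT was in 0 of 7 members and in 14.0% of windows, and the TATA box letters TATAAA were in 1 of 7, Sh2d7, and in 12.4% of windows. Only the part of each window before the annotated start was searched, on both strands, for the members and for all windows. The absence of a motif says only that its letters are not in that part. The 80 bases before the annotated start are shown for these 2 genes, with the motif in capitals, and for Bmx, a member with a high level per kb and without the motif. They lie at chr17:57279020-57279099 (Vav1, plus strand), chr1:87620232-87620311 (Inpp5d, plus) and chrX:164258194-164258273 (Bmx, minus).
Vav1: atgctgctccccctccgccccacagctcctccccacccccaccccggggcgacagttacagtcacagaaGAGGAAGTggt
Inpp5d: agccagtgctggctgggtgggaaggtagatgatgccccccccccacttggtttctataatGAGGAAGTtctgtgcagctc
Bmx: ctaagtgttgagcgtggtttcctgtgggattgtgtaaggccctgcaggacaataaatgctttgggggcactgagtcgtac
A match is a description of the letters, and these libraries do not measure binding.

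Outside all lists, the 5 genes whose pattern over the 6 libraries was most like the mean pattern of the members were Mroh2a, Tas2r115, Txndc16, Mctp1 and Tas2r138. Likeness was Pearson's r of log2 CPM over 6 libraries that fall into 2 populations, with values between 0.998 and 0.999 among 11502 candidate genes, and it carries no test. Mctp1, with the highest level of the 5, had a mean of 2004 CPM in tuft-like mTEC and of 143 CPM in the other population. The bitter taste receptor gene Tas2r138 stood at 178 and 5.47 CPM.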

How the data were processed

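The authors used Trimmomatic 0.36 for trimming, STAR 2.7.3a for alignment to mm10 and HTSeq for assignment to genes, and deposited whole read counts per gene. The annotation release and the strand setting are not given in the sources used here. Libraries were made with an ultra-low input kit, and without molecular identifiers reads may repeat a molecule, so limits cover counting error only. Groups came from the sample titles. Of 52636 gene rows, 52403 matched GENCODE M21, and 92 ERCC rows (0 counts) and 5 rows of unassigned reads were left out of tests. Analyses used R 4.3.3 and edgeR 4.0.16 (filterByExpr with minimum count 10 and total 15, TMM, quasi-likelihood F-test, Benjamini-Hochberg FDR), after a test on simulated data. Standard errors were approximated from the size of the log2 fold change over the root of F. With 3 against 3, an exact permutation test cannot go below 0.1. DESeq2 1.42.0, limma voom 3.58.1, other scalings and filters, a background subtraction, the replicate number and each library left out were alternatives. The members, lists and tests were chosen with earlier results of these data known. Named were the members, called genes of the signalling list, the relatives, sort markers, the first marker of each leukocyte list and any called one, and the 5 genes most like the members. Epcam, Krt8, Hdc, Gata2, Sh2d4a, Pag1, Sos1, Rac2 and Themis were named after values were seen. A few genes picked by this rule are not reported here, although the counts over lists include them.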

Additional observations from a re-analysis of the deposited data

Results flagged for a closer look

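Reads assigned to no gene, which enter none of the comparisons, made up 61.6% of all rows in tuft-like replicate 1, above the 34.4% to 52.5% in the non-tuft-like libraries. In tuft-like replicate 2 the share was 47.6% and in replicate 3 it was 19.7%. The members other than Btk were lowest in replicate 1 and highest in replicate 3 of the tuft-like libraries, and the part of these reads in that spread was not tested.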

How the results depend on the processing

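The median log2 fold change of the members stayed within the spread between libraries in all alternatives. The 687 genes called over all tested genes became 1045 with library size only, 1127 with all genes counted at least once, 1547 with a mean of at least 10 CPM (11632 genes tested) and 1902 with DESeq2, and lay between 376 (without tuft-like replicate 2) and 922 (without tuft-like replicate 3), with 379 without non-tuft-like replicate 2. The 13 signalling genes became 19 of 55 tested with a mean of at least 10 CPM, 20 of 102 with DESeq2, and between 9 and 13 with a library left out. The 2 leukocyte markers, both lower, became 4 of 44 tested with all counted genes, 5 of 11 with at least 10 CPM and 6 of 42 with DESeq2. Of these, 1, 2 and 2 were higher. Over all tested genes, these settings called 1127 of 47762, 1547 of 11632 and 1902 of 32496. The cause was not tested. With the replicate number as a block, 737 genes, 14 signalling genes and 2 leukocyte markers were called. The labels do not say whether the numbers pair the libraries. Deviations from the population mean in same-numbered libraries had correlations of -0.156, -0.061 and -0.326. With 3 libraries per population and unequal read quality, these values cannot decide it. Kit was called in 7 alternatives. Uncalled relatives of the members that changed sign with a library left out were Src (-0.39 to 0.017), Ptpn11 (-0.39 to 0.13) and Cd79a (-0.65 to 0.38). The member Btk, which carries no test, changed sign as well and ranged from -0.13 to 0.27.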
